A study of Mus musculus with 4 samples.

Results

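The splicing factors described here are the heterogeneous nuclear ribonucleoproteins (hnRNP, symbols starting with Hnrnp), the serine/arginine-rich proteins (SR, symbols Srsf followed by a number) and 11 further regulators of exon choice: Tra2a, Tra2b, Ptbp1, Ptbp2, Ptbp3, Mbnl1, Mbnl2, Celf1, Celf2, Rbfox2 and Rbm39. They were selected by their gene symbols and number 42 of the 22488 genes listed: 20 hnRNP, 11 SR and 11 others. Their expression was measured by RNA sequencing in cultured vascular smooth muscle cells of C57BL/6 mice at passage 4 to 10, the contractile cells of the vessel wall kept in culture. One group received scramble siRNA, a control without an intended target, and the other an siRNA directed at circEsyt2, a circular RNA that shares its name with the gene Esyt2. Both were collected 48 hours after transfection, with 2 libraries each. All cells were transfected and no untransfected cells were analysed here. A change made by either siRNA would therefore look the same in this comparison. No label says that libraries of a group came from separate cultures, so every p-value measures the spread between these libraries, which may be technical.

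SR proteins bind exons through RNA recognition motifs and recruit the spliceosome through their arginine- and serine-rich domain. The hnRNPs coat nascent transcripts and often have the opposite effect on the exon they bind, and the balance of both decides which exons enter the mRNA. PTB, MBNL, CELF and RBFOX proteins are known for the exon choices that change when muscle cells differentiate or lose their contractile state. Many genes of these families control their own output by splicing in an exon that sends the transcript to nonsense-mediated decay. GENCODE M21 lists at least 1 transcript of the nonsense-mediated decay class for 26 of the 42 genes and for 9 of the 11 SR genes. The values here count all exons of a gene together, so they show neither which isoform was made nor whether any exon was skipped.

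The unit is FPKM, fragments scaled to gene length and to the size of the library. For most genes the values match a length over all annotated exons of the gene, whichever isoform was made. Levels set beside each other between genes therefore depend in part on that annotated length. The libraries held 2516428 to 4116791 fragments assigned to genes, and the 41 members that entered the test ranged from 15 fragments in a library (Srsf4) to 3111 (Hnrnpu), leaving aside Hnrnpul2, for which no fragment number was recovered. The host gene Esyt2 measured 53.4 and 50.6 FPKM with scramble siRNA, against 40.6 and 48.7 FPKM with circEsyt2 siRNA, a count over the whole gene that does not separate the circle. Of 8 smooth muscle markers Acta2 was the highest, at 829 to 1446 FPKM, whereas Tagln stood at 5.08 to 10.4 and Des at 0.423 to 1.04 FPKM. All 7 tested smooth muscle markers were lower in both circEsyt2 siRNA libraries than in both scramble libraries, and limma called 6 of them lower. Of 5 fibroblast markers 2 were called lower, Thy1 from 62.8 and 58.4 to 14.1 and 12.9 FPKM and Pdgfra from 20.5 and 19.4 to 6.995 and 7.56 FPKM. The other 3 were not called. Dcn was slightly higher, at 184 and 190 FPKM against 205 and 192 FPKM, Lum was lower, and the groups overlapped in Col1a1. The fibroblast list summed to 565 to 631 FPKM with scramble siRNA and 445 to 504 FPKM in the other group. Of 5 endothelial markers 2 were tested, and Kdr was called higher, from 1.23 and 1.26 to 4.32 and 4.00 FPKM; the list summed to 3.31 and 3.66 FPKM against 8.33 and 6.35 FPKM. Macrophage and neuron markers, 5 each, summed to at most 10.0 FPKM in any library, and limma called 0 of the 3 tested, with 0 at an unadjusted p under 0.05 and 0 called by voom. The 10 hepatocyte markers, headed by Alb, summed to 12.6 and 3.31 FPKM with scramble siRNA but to 3071 and 96.0 FPKM in circEsyt2 siRNA replicates 1 and 2. Limma and voom called 0 of these 10, of which 8 had an unadjusted p under 0.05 in limma. Replicate 1 therefore stands apart, and each result below is also given without it where that changes the call. The part of these markers in the results was not tested. In bulk RNA, fewer cells of a type and less RNA per cell cannot be told apart.

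With circEsyt2 siRNA 4 of the 41 tested members rose and 4 fell. Rbm39, Hnrnpdl, Ptbp3 and Hnrnpu rose, and Hnrnpab, Hnrnpd, Hnrnpa1 and Mbnl2 fell. No SR gene passed the test in either direction, and the other 33 tested members did not pass. Across all 11290 genes tested, 5.47% were called higher and 7.26% lower, and 4 of 41 members is 9.76%. With so few members that share is not read as a result about the families as a whole. The test was limma on log2(FPKM + 1) with Benjamini-Hochberg adjustment over all genes, at a threshold of 0.05. All 8 calls depended on having both scramble libraries. Leaving out scramble replicate 1 or 2 left limma with 0 called genes in the whole table, where 1959 and 2231 genes respectively had an unadjusted p under 0.05; voom was not run on these subsets.

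Without circEsyt2 siRNA replicate 1, the library rich in hepatocyte markers, 2 members were called higher (Hnrnpdl and Rbm39) and 4 lower (Hnrnpab, Hnrnpd, Hnrnpa1 and Mbnl2). Moderation without a mean-variance trend left 2 of the 8 calls, Hnrnpab and Hnrnpd. Without circEsyt2 siRNA replicate 2 no member was called higher, and Hnrnpab and Mbnl2 were called lower. The direction of all 8 was kept in each of the 13 alternative fits in which they were tested. In 27 of the 41 tested members the 2 groups of libraries did not overlap, 13 higher and 14 lower. Over all genes tested the groups did not overlap in 29.7% as higher and 31.1% as lower, 60.7% together. The median log2 fold change was −0.03 over the 20 hnRNP genes and −0.03 over the 10 tested SR genes, beside 0.00 over all genes tested.

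**Figure D1:**
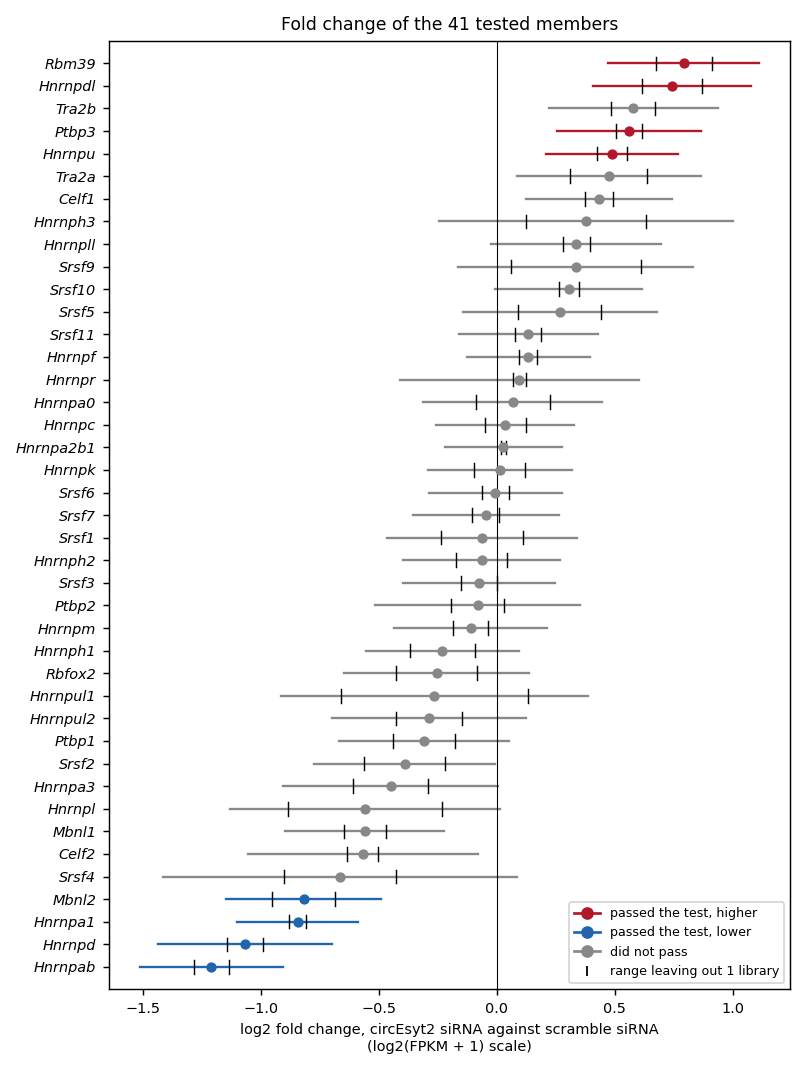
Log2 fold change of each tested member (x axis, log2(FPKM + 1) scale, circEsyt2 siRNA against scramble siRNA), with its 95% confidence interval from limma as a horizontal line and, as black ticks, the lowest and highest value when 1 of the 4 libraries is left out. The 4 genes in red passed the test as higher and the 4 in blue as lower; Hnrnpab lies lowest at −1.21 and Rbm39 highest at 0.79.

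The hnRNP D subfamily holds Hnrnpd, Hnrnpdl and Hnrnpab. Of the groups of close relatives, it was the one in which every gene passed the main limma test. Its members went in opposite directions. Under voom on recovered fragments the selected members of the TRA2, MBNL and CELF families all passed as well, with Celf1 and Celf2 in opposite directions. Mbnl3 and Celf4, tested but not among the 42 members, were not called by limma (adjusted p = 0.615 and 0.342) or voom. Hnrnpd encodes AUF1, a protein that binds AU-rich elements and marks many short-lived mRNAs for decay. Hnrnpdl and Hnrnpab encode proteins of the same build, a pair of RNA recognition motifs followed by a glycine-rich tail. The longest coding sequences in GENCODE M21 have 355 codons for Hnrnpd, 420 for Hnrnpdl and 332 for Hnrnpab. Hnrnpd is identical to Hnrnpdl at 69.2% of aligned coding bases and to Hnrnpab at 71.1%, and no stretch of 50 bases is shared between any pair of the 42 members.

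Hnrnpab measured 56.3 and 60.8 FPKM in the scramble libraries, against 26.1 and 23.4 FPKM in the circEsyt2 siRNA libraries. The fall was 2.36-fold by mean FPKM, and 1.21 on the log2 scale (SE 0.12, limma adjusted p = 0.00508). Hnrnpab had the lowest fold change of all tested members, and both circEsyt2 siRNA libraries lie far below either scramble library. The gene (Entrez 15384) lies on chromosome 11 at 51600100 to 51606847 of GRCm38, minus strand, and 29.1% of its exonic bases overlap exons of Phykpl on the other strand. Phykpl, an enzyme gene, was low in all 4 libraries, at 2.01 and 2.23 FPKM with scramble siRNA, against 1.70 and 1.52 FPKM with circEsyt2 siRNA.

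Hnrnpd measured 16.2 and 18.1 FPKM with scramble siRNA, against 7.26 and 8.09 FPKM with circEsyt2 siRNA, from 300, 549, 201 and 186 fragments. It fell by 1.07 on the log2 scale (SE 0.15, limma adjusted p = 0.0119), a 2.24-fold difference of mean FPKM. The groups are far apart, and this call did not hold without circEsyt2 siRNA replicate 2 (adjusted p = 0.0570). Hnrnpdl measured 28.4 and 30.7 FPKM with scramble siRNA, against 45.7 and 54.6 FPKM with circEsyt2 siRNA. It rose by 0.74 on the log2 scale (SE 0.14, limma adjusted p = 0.0243), a 1.70-fold difference of mean FPKM. That call likewise did not hold without circEsyt2 siRNA replicate 2 (adjusted p = 0.0895). Hnrnpd and Hnrnpdl are near neighbours in the genome. Hnrnpd (Entrez 11991) spans chromosome 5 from 99955935 to 99978938 and Hnrnpdl (Entrez 50926) from 100033577 to 100039664, both on the minus strand of GRCm38, with 54.6 kb and 1 coding gene, 4930524J08Rik, between them.

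The make-up of the subfamily differed between the groups. Hnrnpab held 55.8% and 55.5% of the summed FPKM of the 3 genes with scramble siRNA, against 33.0% and 27.2% with circEsyt2 siRNA, while Hnrnpdl went from 28.1% and 28.0% to 57.8% and 63.4%. By FPKM Hnrnpdl was thus the highest of the 3 in both circEsyt2 siRNA libraries and Hnrnpab in both scramble libraries. These shares depend in part on annotated exon lengths, 2782 bases for Hnrnpab, 4818 for Hnrnpdl and 7354 for Hnrnpd. In fragments Hnrnpab had 394 and 696 with scramble siRNA, against 273 and 204 with circEsyt2 siRNA. Hnrnpdl had 344 and 608, against 829 and 823. The sum itself was 105 ± 6.15 FPKM in the scramble group and 82.6 ± 5.05 in the other (SD, n = 2). The ratio of Hnrnpdl to Hnrnpd was 1.75 and 1.69 in the scramble libraries, against 6.30 and 6.75 in the circEsyt2 siRNA libraries. The ratio of Hnrnpd to Hnrnpab overlapped between the groups, at 0.288 and 0.298 against 0.279 and 0.345.

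Because neighbouring and closely related genes of this subfamily moved apart, their promoters are shown here, each from 250 bases before to 50 bases after the RefSeq start (GRCm38.p6, minus strand in all cases, written 5′ to 3′ as transcribed). Capitals mark matches, on either strand, to 6 motifs: the GC box GGGCGG, the CCAAT box CCAAT, the TATA box TATAAA, the ETS site CCGGAAGT, the cyclic AMP response element TGACGTCA and the amino acid response element TGATGNAA.
Hnrnpd, chr5:99978889-99979188: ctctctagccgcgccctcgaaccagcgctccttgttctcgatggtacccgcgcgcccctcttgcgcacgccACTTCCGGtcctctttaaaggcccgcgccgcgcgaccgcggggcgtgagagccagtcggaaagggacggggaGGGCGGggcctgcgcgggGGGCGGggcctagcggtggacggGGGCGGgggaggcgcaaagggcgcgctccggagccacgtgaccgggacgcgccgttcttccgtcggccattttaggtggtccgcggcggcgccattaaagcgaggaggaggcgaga
Hnrnpdl, chr5:100039173-100039472: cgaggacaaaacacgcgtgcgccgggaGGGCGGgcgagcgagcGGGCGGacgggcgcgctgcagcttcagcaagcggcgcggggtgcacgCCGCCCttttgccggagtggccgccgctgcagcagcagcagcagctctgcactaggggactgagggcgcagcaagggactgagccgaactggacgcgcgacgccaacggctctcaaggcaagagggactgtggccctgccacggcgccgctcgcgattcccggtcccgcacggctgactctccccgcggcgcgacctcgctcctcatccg
Hnrnpab, chr11:51606832-51607131: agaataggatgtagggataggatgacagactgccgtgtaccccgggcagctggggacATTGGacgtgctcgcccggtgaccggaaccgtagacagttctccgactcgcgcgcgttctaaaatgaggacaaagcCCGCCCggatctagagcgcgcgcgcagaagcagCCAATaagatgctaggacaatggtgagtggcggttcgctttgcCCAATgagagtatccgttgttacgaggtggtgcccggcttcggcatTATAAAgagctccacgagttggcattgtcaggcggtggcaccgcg
The Hnrnpd and Hnrnpdl windows are both rich in G and C (72.3% and 72.7% of bases), hold 3 GC boxes each and have neither a CCAAT box nor a TATA box. The Hnrnpab window is 58.3% G and C and holds 1 GC box, 3 CCAAT boxes and 1 TATA box. The Hnrnpd window also holds 1 ETS site. By GENCODE M21 the Hnrnpdl window lies wholly inside the gene, which reaches to 100039664, so its bases need not lie upstream of every start. The Hnrnpd and Hnrnpab windows reach past the ends of their genes, so the 3 windows are not alike in position. Of the 27025 genes with a window in the table, 35.9% hold the GC box, 37.9% the CCAAT box, 14.2% the TATA box and 4% the ETS site. Among the 38 members with a window the GC box was found in 29 and the CCAAT box in 21. Median G and C content was 63% in the member windows and 52.7% over all windows, and no enrichment of a motif was tested. These matches describe letters in a window of 300 bases and were not tested against any change in level.

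In the hnRNP A/B subfamily Hnrnpa1 fell while its closest abundant relative did not pass. Hnrnpa1, a repressor of exon inclusion that also shuttles mRNA out of the nucleus, measured 89.4 and 93.8 FPKM with scramble siRNA, against 51.2 and 49.9 FPKM with circEsyt2 siRNA. The fall of 0.84 on the log2 scale (SE 0.10, limma adjusted p = 0.00869) is 1.81-fold by mean FPKM. Replicates of each group lie close together and the groups are well separated. The call just missed the threshold without circEsyt2 siRNA replicate 2 (adjusted p = 0.0507). Hnrnpa1 (Entrez 15382, chromosome 15, 103240432 to 103246692, plus strand) shares 28.2% of its 50-base stretches with 20 other genes, 19 of them annotated as pseudogenes, so its level is uncertain to the extent that fragments could be split among copies.

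Hnrnpa2b1, whose protein takes part in splicing and in the transport of mRNA, measured 79.1 and 77.8 FPKM with scramble siRNA, against 79.8 and 80.3 FPKM with circEsyt2 siRNA. Its fold change was 0.03 on the log2 scale, with a 95% confidence interval from −0.22 to 0.27 (limma adjusted p = 0.875). The ratio of Hnrnpa2b1 to Hnrnpa1 FPKM was 0.886 and 0.830 with scramble siRNA, against 1.56 and 1.61 with circEsyt2 siRNA. Which gene was higher by FPKM depends in part on annotated exon lengths, 3153 bases for Hnrnpa1 and 6584 for Hnrnpa2b1. Before scaling to length Hnrnpa2b1 had more fragments in all 4 libraries, at 1311 to 2109 against 492 to 1217 for Hnrnpa1. Their coding sequences are identical at 72.8% of aligned bases. Hnrnpa3 measured 8.98 and 11.4 FPKM with scramble siRNA, against 7.78 and 6.58 FPKM with circEsyt2 siRNA, and its log2 fold change of −0.45 (SE 0.18) did not pass (adjusted p = 0.169) and was −0.29 without scramble replicate 2. It shares 27.1% of its 50-base stretches with other genes. Hnrnpa0 lay between 42.9 and 54.2 FPKM with overlapping groups.

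Hnrnpu, whose protein (also called SAF-A) ties nuclear RNA to chromatin, rose, and its relatives did not pass. Hnrnpu measured 54.6 and 51.1 FPKM with scramble siRNA, against 71.2 and 77.9 FPKM with circEsyt2 siRNA, a log2 fold change of 0.49 (SE 0.11, limma adjusted p = 0.0446). It had the highest fragment numbers of all members, at 1595 to 3111. This is nonetheless the call closest to the threshold: it was lost without either circEsyt2 siRNA replicate (adjusted p = 0.0619 and 0.128), and under trimmed mean and median ratio scaling (0.0561 and 0.0533). With no filter on low values its adjusted p was 0.0620. The gene (Entrez 51810) lies on chromosome 1 at 178321108 to 178337797, minus strand, and 6.93% of its exonic bases overlap Cox20. Hnrnpul1 was split within its group, at 13.1 and 23.5 FPKM in circEsyt2 siRNA replicates 1 and 2 beside 20.6 and 22.03 with scramble siRNA. Its fold change was −0.26 on the log2 scale, against 0.13 and −0.66 without circEsyt2 siRNA replicate 1 or 2. Hnrnpul2 lay between 8.10 and 11.7 FPKM, with a log2 fold change of −0.29 that was −0.15 without circEsyt2 siRNA replicate 2.

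The hnRNP gene with the highest mean FPKM was Hnrnpk, whose protein binds C-rich RNA and DNA through KH domains. Its level was 87.0 and 101 FPKM with scramble siRNA, against 99.6 and 89.96 FPKM with circEsyt2 siRNA, and the groups overlapped (log2 fold change 0.01, 95% confidence interval −0.29 to 0.32). Hnrnpc, which binds uridine tracts, and Hnrnpm, a regulator of alternative exons in epithelial and mesenchymal cells, also overlapped, at 46.5 to 52.5 and 24.6 to 29.6 FPKM. Hnrnpr, at 3.06 to 3.44 FPKM, had the lowest mean FPKM of the family. Its annotated exons cover 22199 bases and it had 171 to 294 fragments, against 3151 bases and 24 to 70 fragments for Hnrnph3. Hnrnpk, Hnrnpc, Hnrnpm and Hnrnpr, the 4 hnRNP genes not placed in a subfamily here, all had an absolute log2 fold change under 0.2. Subfamilies were drawn only among symbols starting with Hnrnp, so relatives with other symbols are left out. Of all genes tested 31.1% had such a value. The 4 genes of the H/F subfamily, which bind runs of G, did not pass either. Their log2 fold changes ran from −0.23 (Hnrnph1, adjusted p = 0.292) to 0.38 (Hnrnph3, adjusted p = 0.364). Both ends rest on single libraries: leaving out scramble replicate 1 or 2 gave −0.37 or −0.09 for Hnrnph1. For Hnrnph3 the value was 0.12 and 0.63 without circEsyt2 siRNA replicate 1 or 2, and 0.23 without scramble replicate 1. Hnrnpf, which had the highest mean FPKM of them and lay at 61.6 to 71.0 FPKM, shares 61.9% of its 50-base stretches with other genes.

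Hnrnpl and Hnrnpll, which bind CA repeats, leaned in opposite directions, and neither passed. Hnrnpl measured 29.4 and 18.3 FPKM with scramble siRNA, against 14.6 and 16.3 FPKM with circEsyt2 siRNA. The 2 scramble libraries differ more from each other than the second does from either circEsyt2 siRNA library, and the log2 fold change of −0.56 (SE 0.23, limma adjusted p = 0.173) went to −0.23 without scramble replicate 1 and −0.89 without scramble replicate 2. Hnrnpll measured 9.63 and 8.82 FPKM with scramble siRNA, against 11.6 and 12.2 FPKM with circEsyt2 siRNA (log2 fold change 0.34, SE 0.15, adjusted p = 0.188). Summed over all 20 genes, hnRNP FPKM was 758 and 796 in the scramble libraries, against 713 and 731 in the circEsyt2 siRNA libraries.

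**Figure D2:**
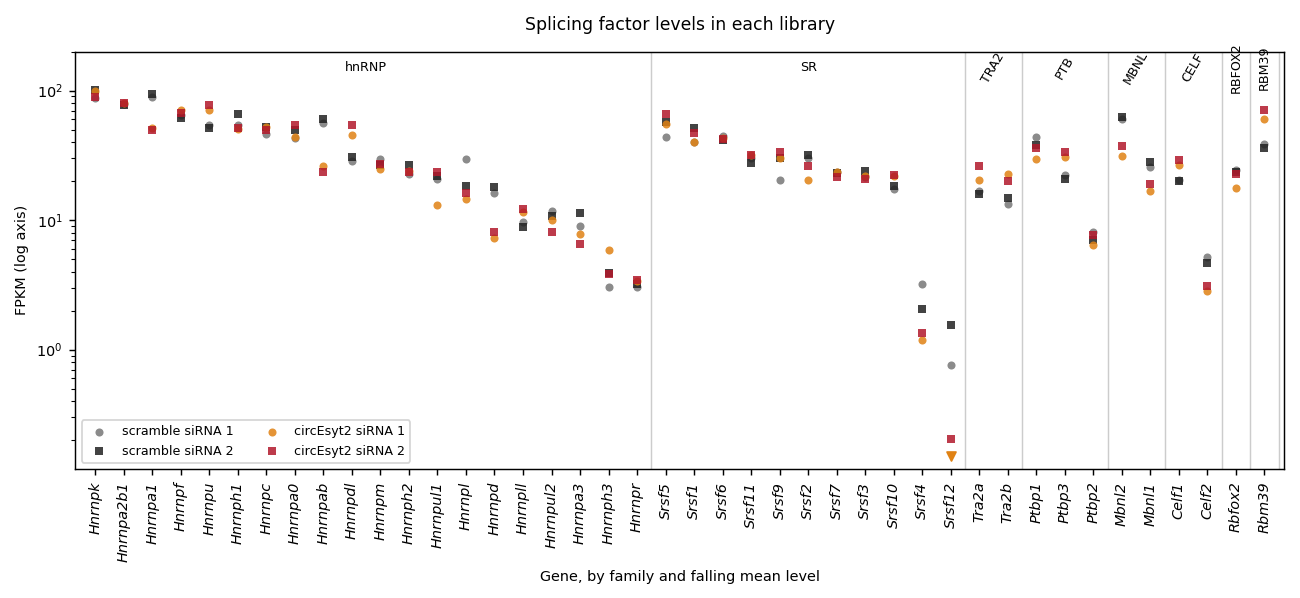
FPKM of each member in each of the 4 libraries (y axis, log scale), grouped by family and ordered by mean level within it; grey and black points are scramble siRNA replicates 1 and 2, orange and red points circEsyt2 siRNA replicates 1 and 2. The orange triangle marks Srsf12 at 0 FPKM in circEsyt2 siRNA replicate 1, and the Hnrnpab and Mbnl2 points of both circEsyt2 siRNA libraries lie well below those of both scramble libraries.

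Of the SR family, 0 of 10 tested genes were called by limma, 1 (Srsf2) had an unadjusted p under 0.05, and limma's voom on recovered fragment numbers also called 0. The background of calls in either direction is 12.7% in limma, where 3397 of 11290 genes had an unadjusted p under 0.05. Voom called 871 higher and 1106 lower of the 10821 genes it tested. Absolute log2 fold changes were under 0.2 in 5 of the 10, beside 31.1% of all genes tested. In 4 of the 10 the groups did not overlap, beside 60.7% of all genes tested. Srsf5, an SR protein with a pair of RNA recognition motifs, had the highest mean FPKM of the SR genes. It measured 44.1 and 56.7 FPKM with scramble siRNA, against 54.9 and 66.4 FPKM with circEsyt2 siRNA. Srsf1, the founding SR protein, measured 40.0 and 51.3 FPKM with scramble siRNA, against 39.9 and 47.0 FPKM with circEsyt2 siRNA. In both genes replicate 2 of each group was the higher library, and the groups overlapped. The 95% confidence interval of the log2 fold change ran from −0.15 to 0.68 for Srsf5 and from −0.47 to 0.34 for Srsf1. The Srsf5 value of 0.27 ranged from 0.09 without scramble replicate 1 to 0.44 without scramble replicate 2, and was 0.40 and 0.13 without circEsyt2 siRNA replicate 1 or 2.

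Srsf6, of the same build as Srsf5, varied little, at 44.8 and 41.2 FPKM with scramble siRNA, against 43.1 and 42.5 FPKM with circEsyt2 siRNA. Its 95% confidence interval ran from −0.29 to 0.27 on the log2 scale (limma adjusted p = 0.977). Srsf2, known as SC35 and a marker of nuclear speckles, measured 29.96 and 31.8 FPKM with scramble siRNA, against 20.6 and 26.4 FPKM with circEsyt2 siRNA. The groups did not overlap, but the log2 fold change of −0.39 (SE 0.16) did not pass (adjusted p = 0.162) and was −0.22 without circEsyt2 siRNA replicate 1. On the other strand, 15.6% of the exonic bases of Srsf2 overlap Mettl23 and 9.74% overlap Mfsd11. Mfsd11 measured 4.66 and 5.01 FPKM with scramble siRNA, against 6.08 and 11.52 FPKM with circEsyt2 siRNA. Srsf10, a splicing repressor when dephosphorylated, measured 17.3 and 18.3 FPKM with scramble siRNA, against 22.1 and 22.3 FPKM with circEsyt2 siRNA (log2 fold change 0.30, SE 0.13, adjusted p = 0.173).

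The 2 lowest SR genes were both lower with circEsyt2 siRNA, from few fragments. Srsf4, at 3.24 and 2.05 FPKM against 1.19 and 1.35, had 29, 30, 16 and 15 fragments and did not pass (log2 fold change −0.66, SE 0.30, limma adjusted p = 0.207). Without scramble replicate 1 the Srsf4 value was −0.43. Srsf12 had 6 and 20 fragments with scramble siRNA, against 0 and 2 with circEsyt2 siRNA. With a mean of 0.626 FPKM it stayed below the minimum of 1 FPKM for the test, and it is the 1 member that was not tested. Srsf3, Srsf7, Srsf9 and Srsf11 lay between 20.4 and 33.3 FPKM in all libraries, with log2 fold changes from −0.08 (Srsf3) to 0.33 (Srsf9). The Srsf9 value rests on 1 library: it was 0.06 without scramble replicate 1 and 0.61 without scramble replicate 2. Summed over the 11 SR genes, FPKM was 276 and 308 with scramble siRNA, against 289 and 314 with circEsyt2 siRNA.

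The SR-like activators Tra2a and Tra2b, which bind GAA-rich exon enhancers, had fold changes above 0 that did not pass the test. Tra2a measured 16.8 and 15.9 FPKM with scramble siRNA, against 20.5 and 26.0 FPKM with circEsyt2 siRNA (log2 fold change 0.47, SE 0.16, limma adjusted p = 0.109). Tra2b measured 13.2 and 14.8 FPKM against 22.8 and 19.98 FPKM (log2 fold change 0.58, SE 0.15, adjusted p = 0.0551). Voom on recovered fragments called both (adjusted p = 0.0498 for Tra2a and 0.0147 for Tra2b), and at a minimum mean of 5 FPKM Tra2b passed (0.0273). Without circEsyt2 siRNA replicate 2 the Tra2a value was 0.31. Neither pair of groups overlapped, and their sum went from 30.4 ± 0.463 to 44.6 ± 1.85 FPKM (SD, n = 2). By FPKM Tra2a exceeded Tra2b in every library except circEsyt2 siRNA replicate 1, whereas Tra2b had more fragments in all 4 libraries.

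Rbm39, also called CAPERα, is a splicing factor with an SR-like domain related to U2AF65, which recognizes the 3′ splice site. It rose from 38.4 and 35.9 FPKM with scramble siRNA to 59.9 and 70.7 FPKM with circEsyt2 siRNA. The log2 fold change of 0.79 (SE 0.13, limma adjusted p = 0.0181) was the highest among the tested members, a 1.76-fold difference of mean FPKM. Both circEsyt2 siRNA libraries lie above both scramble libraries, with 1566 and 1536 fragments, and this call did not hold without circEsyt2 siRNA replicate 2 (adjusted p = 0.0738). The gene (Entrez 170791) lies on chromosome 2 at 156147239 to 156180238, minus strand. Of its 25 transcripts in GENCODE M21, 8 are of the nonsense-mediated decay class and 7 are retained introns, so a higher gene count need not be more coding mRNA.

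The PTB genes encode polypyrimidine tract binding proteins, repressors that keep muscle and neuronal exons out of the mRNA of other cells. Ptbp3 rose, from 22.1 and 20.8 FPKM with scramble siRNA to 30.8 and 33.3 FPKM with circEsyt2 siRNA (log2 fold change 0.56, SE 0.12, limma adjusted p = 0.0399). This call was lost without either circEsyt2 siRNA replicate (adjusted p = 0.0688 and 0.125), and with no filter on low values (0.0546). Ptbp3 (Entrez 230257) lies on chromosome 4 at 59471868 to 59549364, minus strand. Ptbp1, the main PTB gene of non-neuronal cells, measured 43.4 and 38.2 FPKM with scramble siRNA, against 29.8 and 36.0 FPKM with circEsyt2 siRNA. Its log2 fold change of −0.31 (SE 0.15, 95% confidence interval −0.67 to 0.05) did not pass (adjusted p = 0.216) and was −0.18 without circEsyt2 siRNA replicate 1. Ptbp2, the neuronal relative, measured 8.06 and 6.96 FPKM with scramble siRNA, against 6.43 and 7.67 FPKM with circEsyt2 siRNA. Its groups overlapped (log2 fold change −0.08, SE 0.18, 95% confidence interval −0.51 to 0.35, adjusted p = 0.782).

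The ratio between these relatives was not tested and is given here for each library. Ptbp1 was 1.96 and 1.84 times Ptbp3 with scramble siRNA, against 0.965 and 1.08 times Ptbp3 with circEsyt2 siRNA. The sum of the 3 PTB genes overlapped between the groups, at 73.6 and 65.9 FPKM against 67.0 and 76.9 FPKM. Ptbp1 and Ptbp3 are identical at 73.2% of aligned coding bases.

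MBNL proteins, which bind YGCY motifs and are sequestered by CUG repeats in myotonic dystrophy, promote exon choices of differentiated muscle. Mbnl2 fell from 60.1 and 62.3 FPKM with scramble siRNA to 31.2 and 37.6 FPKM with circEsyt2 siRNA, by 0.82 on the log2 scale (SE 0.13, limma adjusted p = 0.0178). The gene (Entrez 105559) lies on chromosome 14 at 120275669 to 120431697, plus strand. It rests on 1408 to 3074 fragments, and it and Hnrnpab were the 2 members whose calls held without either circEsyt2 siRNA replicate. Mbnl1 measured 25.6 and 27.9 FPKM against 16.7 and 19.0 FPKM, and its log2 fold change of −0.56 (SE 0.14) missed the threshold (adjusted p = 0.0515). Mbnl1 passed in 4 of the 13 alternatives: a pseudocount of 0.1 (0.0483), a minimum mean of 5 FPKM (0.0258), quantile normalization (0.0458) and voom (0.00688). Both genes were lower in both circEsyt2 siRNA libraries than in either scramble library. Their sum went from 87.9 ± 3.20 to 52.2 ± 6.19 FPKM (SD, n = 2), a ratio of 1.68.

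CELF proteins bind GU-rich RNA and are known as antagonists of MBNL on shared exons. Celf1 measured 20.4 and 19.99 FPKM with scramble siRNA, against 26.4 and 28.8 FPKM with circEsyt2 siRNA (log2 fold change 0.43, SE 0.13, limma adjusted p = 0.0774). Celf2 measured 5.17 and 4.64 FPKM against 2.84 and 3.13 FPKM (log2 fold change −0.57, SE 0.20, adjusted p = 0.12). Neither passed, although the groups overlapped in neither gene and limma's voom on recovered fragments called both (adjusted p = 0.0271 and 0.0112). Celf1 also passed at a minimum mean of 5 FPKM (0.0483). The ratio of Celf1 to Celf2 was 3.95 and 4.31 with scramble siRNA, against 9.30 and 9.23 with circEsyt2 siRNA. Rbfox2, which binds UGCAUG and is expressed outside neurons as well, measured 24.5 and 23.4 FPKM with scramble siRNA, against 17.6 and 22.5 FPKM with circEsyt2 siRNA. circEsyt2 siRNA replicate 1 was the low library, and the difference did not pass (log2 fold change −0.25, SE 0.16, adjusted p = 0.334; −0.08 without that library and −0.43 without the other circEsyt2 siRNA library).

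**Figure D3:**
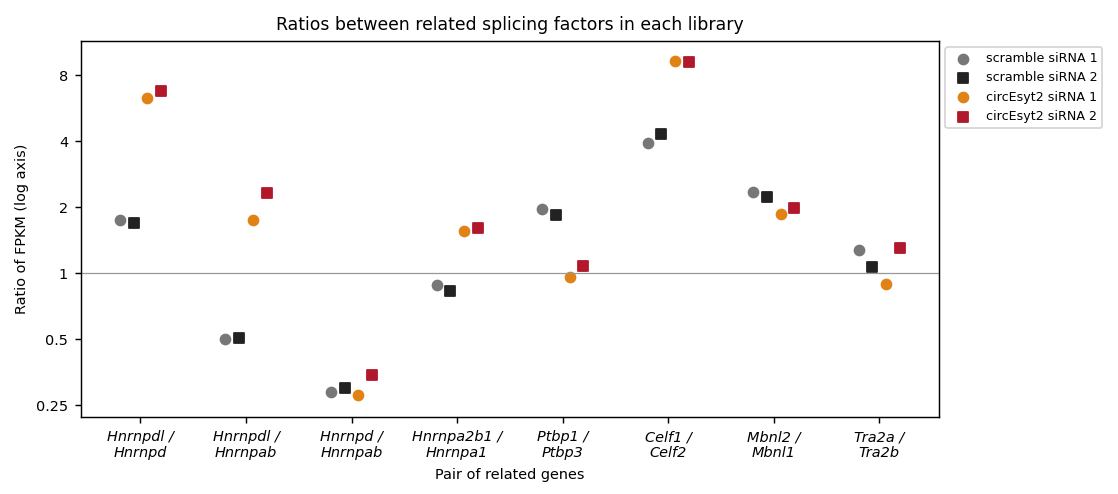
Ratio of FPKM between pairs of related genes (y axis, log scale) in each of the 4 libraries, with scramble siRNA in grey and black and circEsyt2 siRNA in orange and red; the horizontal line marks equal levels. The groups are apart in 6 of the 8 pairs, the farthest being Hnrnpdl over Hnrnpd and Hnrnpdl over Hnrnpab, and they overlap for Hnrnpd over Hnrnpab and Tra2a over Tra2b. For single genes the groups did not overlap in 60.7% of all genes tested. No such share was computed for ratios, so the count of pairs is not read as a result.

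The rest of the splicing machinery was taken from 7 lists chosen by function, with 129 genes of which 116 were tested. Limma called 4 of them higher and 1 lower, beside a background of 5.47% and 7.26%. Dyrk1a, a kinase of the group that phosphorylates SR proteins, rose from 9.78 and 10.9 FPKM to 19.2 and 21.97 FPKM (log2 fold change 0.93, SE 0.15, adjusted p = 0.0169). The SR kinase list had 8 tested members, 1 called higher and 0 lower, which is 12.5% beside 12.7% over all genes tested. All 8 fold changes lay above 0 (median 0.30), where 5673 of the 11290 genes tested did. Clk1 (0.08) and Clk4 (0.06) lay nearest to 0, with overlapping groups. A joint rise of the list was not tested. Of the SR-related and exon junction list, Magoh, a core subunit of the exon junction complex, rose by 0.74 on the log2 scale and Srrm1, a splicing coactivator, fell by 0.63, among 18 tested.

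Of the 34 other splicing regulators tested, Qk and Tardbp rose and 0 fell. Qk, which encodes the muscle splicing regulator quaking, went from 22.8 and 24.9 FPKM to 37.0 and 34.4 FPKM (adjusted p = 0.0391), and Tardbp, which encodes TDP-43, from 20.1 and 19.1 FPKM to 29.9 and 27.7 FPKM (adjusted p = 0.0473). Of these 5 calls, that of Dyrk1a held without circEsyt2 siRNA replicate 1 and none held without replicate 2; voom did not call Magoh (adjusted p = 0.0555). With no filter on low values Qk (0.0525), Srrm1 (0.0538) and Tardbp (0.0657) did not pass. Tardbp was also lost under trimmed mean (0.0533), median ratio (0.0516) and quantile (0.0564) scaling. Moderation without a trend ended all 5 calls (0.0530 for Dyrk1a, 0.0703 to 0.109 for the others), as did leaving out either scramble library. No gene was called in the remaining 4 lists: the U1 and U2 particles with U2AF (18 tested), the Sm proteins (6), the U4/U6.U5 tri-snRNP and catalytic step (21) and nonsense-mediated decay (11). At an unadjusted p under 0.05 limma had 4, 1, 4 and 1 genes in these lists, and voom called 2, 0, 2 and 1. Over all genes, limma had 3397 of 11290 at that p, and voom called 871 higher and 1106 lower of 10821. The medians of these 4 lists were 0.12, 0.16, −0.04 and 0.05, beside 0.00 over all genes tested.

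**Figure D4:**
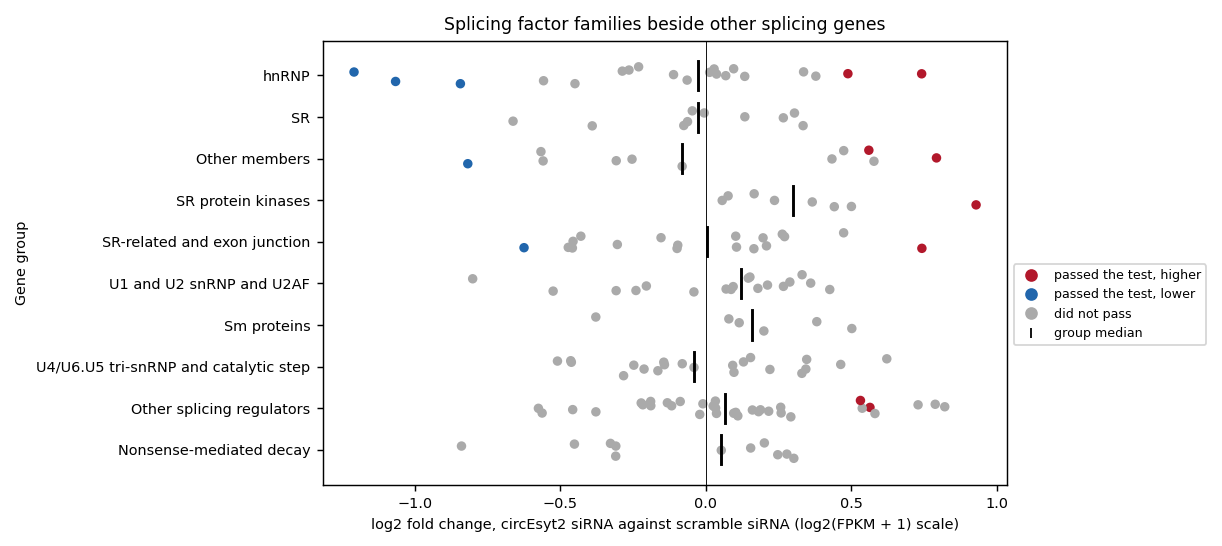
Log2 fold change (x axis, log2(FPKM + 1) scale, circEsyt2 siRNA against scramble siRNA) of each tested gene of the hnRNP and SR families, the 11 other members and 7 further lists of splicing genes; vertical spread within a row is for legibility. Red and blue points passed the test as higher or lower, and black bars are medians. Called were 5 of 20 hnRNP genes (25%), 0 of 10 SR genes and 3 of 11 other members (27.3%), beside 12.7% of all genes tested. With so few genes these shares are not read as a result.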

How the data were processed

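RNA sequencing with paired reads of 150 bp was deposited for 4 libraries, 2 with scramble siRNA and 2 with circEsyt2 siRNA, grouped by sample title. The authors deposited FPKM values, with genes in rows and a file for each library, per the file headers. The submitters' processing notes list Trimmomatic, HISAT2 and featureCounts, and the builds GRCm38 and mm10. For their settings and strand use, the sources say nothing. Whole fragment numbers were solved from the FPKM digits with GENCODE M21 exon-union lengths (whole within 0.0001 for 96.5% of the 20745 genes above 0), which gave the library totals. Fragment numbers show counting error only.

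Genes with a mean of at least 1 FPKM were tested two-sided with limma 3.58.1 in R 4.3.3, with moderation by a mean-variance trend, on log2(FPKM + 1), which understates the change of low genes. The members and lists were chosen with earlier results of these data known. Values are given in full for every called member and for all tested members outside the hnRNP and SR families. In those families they are given for the 3 genes of highest mean FPKM and the 3 uncalled genes of smallest p. In the further lists, called genes are named, at most 3 per list. Other pseudocounts, filters, scalings, moderation, voom, a replicate block and leaving out each library were tried. Shared 50-base stretches and exon overlaps were counted in GENCODE M21. Promoter windows are from RefSeq (GRCm38.p6), matched by symbol for 38 of 42 members. Coding sequences were aligned with Biopython 1.88.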

Additional observations from a re-analysis of the deposited data

How the results depend on the processing

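The 8 called members kept their direction in all 13 alternatives. Calls of single members over the alternatives were most often lost without a scramble library, where 0 genes of the whole table and 0 members passed; the lone scramble library is then assumed to vary like the circEsyt2 siRNA libraries. Leaving out 1 library gave 0 to 405 genes higher and 0 to 622 lower, 0 to 2 members higher and 0 to 4 lower, and medians of −0.072 to 0.030 for hnRNP and 0.0070 to 0.039 for SR genes. With eBayes without a trend 203 genes were higher and 374 lower, and 0 members higher and 2 lower (Hnrnpab and Hnrnpd). With the replicate block 404 genes were higher, and 2 members (Hnrnpdl and Rbm39); the deviations of libraries with the same number correlated at −0.05, so the labels' numbers were not taken to pair the libraries. With no filter on low values 2 members were higher. Voom on recovered fragments called 7 of 40 members higher and 6 lower, beside 871 higher and 1106 lower of 10821 genes. It added Celf1, Tra2a and Tra2b as higher and Celf2 and Mbnl1 as lower. The hnRNP median was −0.088 at a minimum mean of 5 FPKM, −0.075 under quantile normalization and 0.013 with voom. The SR median was −0.047 with no filter, −0.0060 at the minimum of 5, −0.044 under quantile normalization and −0.014 with voom. The cause was not tested. The sign turned for 10 members, none of them called: under quantile normalization Hnrnpa2b1 (−0.0045) and Hnrnpk (−0.056), with voom Srsf6 (0.0086), and on leaving out 1 library Hnrnpa0 (−0.089 to 0.22), Hnrnpc (−0.049 to 0.12), Hnrnph2 (−0.17 to 0.043), Hnrnpk (−0.095 to 0.12), Hnrnpul1 (−0.66 to 0.13), Ptbp2 (−0.19 to 0.030), Srsf1 (−0.24 to 0.11), Srsf6 (−0.065 to 0.053) and Srsf7 (−0.10 to 0.010). Fragment numbers limit Srsf4, and 2 libraries a group limit every p-value.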
